A study of Mus musculus with 2 samples.

Results

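Chemokines are small secreted proteins that direct the movement of leukocytes, and their receptors are membrane proteins coupled to inhibitory G proteins. The family is split by the spacing of the first cysteines of the ligand into the CC, CXC, CX3C and XC classes. In the mammary gland, chemokines draw IgA-producing plasma cells into the lactating tissue and macrophages and other leukocytes into the tissue that regresses after weaning. This regression is called involution. The genes described here are all those whose single platform gene symbol begins with Ccl, Cxcl, Ccr or Cxcr and a digit, with Cx3cl1, Cx3cr1 and Xcl1. They are 49 of 18193 named genes and have 77 of the 34945 probe sets with a single symbol. Of them, 33 are ligands, with 51 probe sets, and 16 are receptors, with 26.

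The tissue was mammary gland of female CD1 mice with litters set to 6 pups. The mice were weaned by force on day 10 of lactation, which the labels call day 0 of involution, and glands were taken on that day or 1 day later. No transgene, deletion or drug is named for either group. The mice had been bought at 6 weeks of age, and the labels give no age at sampling. Each day is represented by a single pool of RNA from 5 mice on a single Affymetrix GeneChip with probe sets for the whole mouse genome. No test, p-value or SD between the days is possible, and every difference below is a difference between 2 arrays with no replicate check. The ratio of the 3′ to the 5′ actin control signal, a measure of RNA quality, was 2.50 on day 0 and 1.51 on day 1. A difference in RNA quality cannot be told apart from the day, and its part in the ratios of single probe sets was not tested. Because whole glands were used, fewer cells of a type and less RNA per cell cannot be told apart.

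The values are MAS 5 signals in linear units. Signals below 77.7, the median of both arrays without control probe sets, were set to that floor before the ratio of day 1 over day 0 was taken. A gene counted as measured if at least 1 of its signals exceeded this floor, and a gene with 1 array at the floor has only a bound, written "at least". Such a gene may differ by more than its bound, so a bound short of 2-fold does not place the gene under 2-fold. Each gene is given by its brightest probe set, and signals of different genes are not compared with each other. The arrays had median signals of 94.2 (day 0) and 60.1 (day 1), and the 18 probe sets of hybridisation controls had a median log2 ratio of -1.24. Over all measured genes the median log2 ratio came to -0.12, and scaling on those controls moved it by 1.17, so ratios are best read against this median. Defining markers of lactating epithelium were present on both arrays. All 8 of them were at least 2-fold lower on day 1 (median log2 ratio -1.31), a median close to that of the hybridisation controls. The part of array scaling in these marker ratios was not tested.

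With the floor of 77.7, the members at least 4-fold different were Ccl9 and Ccl6, both higher on day 1, and Ccl28, which was lower. The 250 bases before the start of each are shown for that reason. The choice depends on the floor, since with a floor at the 25th percentile ratios past 4-fold were reached by 8 more members, among them Ccl5 (3.71 log2), Ccl2 (3.48) and Ccl17 (-3.22). The sequences are from RefSeq (GRCm38.p6) and run 5′ to 3′ on the strand of the gene. Capitals mark matches to 4 short motifs that were searched on both strands. The motifs were GGNNTTTCC for NF-kappaB, TTCNNNGAA for STAT factors, TGANTCA for AP-1 and TTTCNNTTT for the interferon response element (ISRE). The Ccl9 promoter lies at chr11:83578637-83578886 (minus strand), that of Ccl6 at chr11:83593088-83593337 (minus strand) and that of Ccl28 at chr13:119623569-119623818 (plus strand).
Ccl9: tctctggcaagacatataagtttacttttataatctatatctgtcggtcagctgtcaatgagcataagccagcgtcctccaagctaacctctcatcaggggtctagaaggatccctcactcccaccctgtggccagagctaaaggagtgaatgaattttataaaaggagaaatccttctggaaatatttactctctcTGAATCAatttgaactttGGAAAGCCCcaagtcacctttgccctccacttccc
Ccl6: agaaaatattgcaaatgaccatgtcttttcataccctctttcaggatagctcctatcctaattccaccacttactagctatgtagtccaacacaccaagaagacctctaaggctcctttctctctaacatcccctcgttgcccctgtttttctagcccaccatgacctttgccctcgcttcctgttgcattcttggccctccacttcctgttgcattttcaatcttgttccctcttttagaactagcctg
Ccl28: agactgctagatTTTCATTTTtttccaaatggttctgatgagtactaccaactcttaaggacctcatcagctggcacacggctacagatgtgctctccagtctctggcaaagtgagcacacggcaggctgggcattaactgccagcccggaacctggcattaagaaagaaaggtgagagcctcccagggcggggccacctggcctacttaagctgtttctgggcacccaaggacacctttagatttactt
The Ccl9 stretch held the AP-1 letters TGAATCA, starting 53 bases before the start, and the NF-kappaB letters as GGAAAGCCC on the other strand, 35 bases before it. The Ccl6 stretch held no match, although the signals of Ccl6 and Ccl9 differed between the days by nearly the same factor. In a global alignment 50% of the positions of the Ccl6 and Ccl9 stretches were identical, which was no more than for Ccl6 and Ccl28 (50%) or Ccl9 and Ccl28 (51.7%). Promoters of 300 bases, which include 50 bases after the start, were given for 36 of the 49 members. The NF-kappaB letters were in 8 of these 36 genes and in 5.82% of all 32851 promoters. The 8 were Ccl9, Cxcl1, Cxcl9 and 5 genes below the floor on both arrays (Ccl20, Ccr3, Cxcl10, Cxcl2 and Cxcl3). Only 3 of the 7 members at least 2-fold higher had a promoter to search. Ccl2, Ccl5, Cxcl16 and Cxcl17 had none, and Ccr10 had none among the lower members. AP-1 letters were in 8 of 36 members against 7.81% of all promoters, STAT letters in 4 of 36 against 8.3% and ISRE letters in 4 of 36 against 10.6%. A member was counted if any of its promoters matched, while the percentages are over single promoters, of which 27025 genes had 32851. The counts and the percentages are therefore unlike measures, and a gene with several promoters is more easily counted. A match is a description of letters and not a binding site. Some of these genes are close copies of each other, so the members are not independent.

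Of the 33 ligands, 22 were measured, 14 of them with both signals over the floor. By the threshold of 2-fold, 7 ligands were higher on day 1 and 3 were lower. Among all 13239 measured genes, 10.4% were higher by this measure and 13.3% lower, while the ligands had 31.8% and 13.6%. Over the 14 ligands above the floor on both arrays, 5 were higher and 1 was lower, beside 11.6% and 11.1% of the 9768 genes of that kind. The median log2 ratio of the measured ligands was 0.57. Of the 16 receptors, 10 were measured, 4 of them above the floor on both arrays. Among the measured receptors 0 were at least 2-fold higher (beside 10.4% of all genes). The 2 lower ones (20%, beside 13.3%) were both bounds. The median log2 ratio of the measured receptors was -0.03, and it turned positive under 5 of 6 other scalings (0.48 to 0.92). Which members pass the floor depends on their brighter array, so these counts describe the measured genes and not the whole family. Scaling altered the balance. Median centring gave 13 of 22 ligands higher (59.1%) and 2 lower, with 1 of 8 receptors higher (12.5%) and 0 lower, while 28.5% of all measured genes were higher. Hybridisation control scaling gave 14 of 24 ligands higher (58.3%) and 1 lower, with 4 of 9 receptors higher (44.4%) and 0 lower. With that scaling 52.1% of all measured genes were higher, so the ligand share was near the background.

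**Figure D1:**
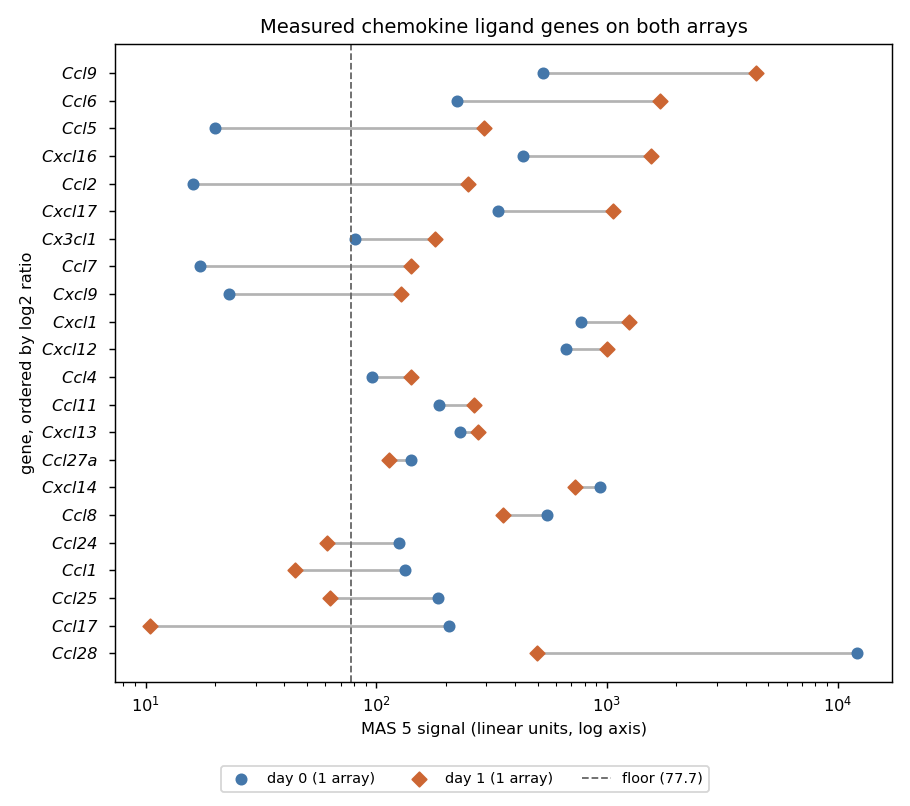
MAS 5 signals (log axis) of the 22 measured ligand genes on the day 0 array (circles) and the day 1 array (diamonds), ordered by log2 ratio, with the floor of 77.7 as a dashed line. Ccl9 stands at the top (528.5 and 4422.4) and Ccl28 at the bottom (12136.5 and 498.5), and for 8 genes 1 of the points lies below the floor.

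Of 5 inflammatory CC ligands, 4 were measured and 3 were at least 2-fold higher (75%, beside 10.4% of all measured genes). These ligands attract monocytes, neutrophils and T cells. Ccl9 had a signal of 528.5 on day 0 and 4422.4 on day 1, which was 8.37-fold higher. Ccl6, a mouse ligand of Ccr1 like Ccl9, had 224.8 and 1701.3, or 7.57-fold. Each had a dimmer probe set of nearly the same ratio. For Ccl9 it had signals of 189.1 and 1525.3 (3.01 log2, against 3.06). For Ccl6 it had 93.6 and 638.1 (2.77 log2, against 2.92). All 4 probe sets of this pair were above the floor on both arrays and far higher on day 1. Ccl5, also named RANTES, had 20.1 and 292.1, at least 3.76-fold higher from a day 0 signal below the floor. Ccl4 had 96.3 and 141.7, or 1.47-fold. Ccl3 was below the floor on both arrays (4.6 and 1.7). In the RefSeq annotation Ccl5, Ccl9, Ccl6, Ccl3 and Ccl4 follow each other with no other protein-coding gene between them. Thus 3 neighbours were counted as higher, while the next was not detected above the floor and the last was under 2-fold.

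Of 3 ligands of Ccr2, the receptor that brings monocytes out of the blood, 1 was counted as higher, beside 10.4% of all measured genes. Ccl2, the main monocyte attractant, had 16.1 and 248.7, at least 3.20-fold higher. Ccl7 had 17.3 and 140.9, at least 1.81-fold. Ccl12 had 3.9 and 54.8 and was below the floor on both days. Ccl8, which acts through Ccr8 in mice, went the other way with 549.9 and 353.6 (-0.64 log2), although the sign turned with median centring and hybridisation control scaling. These genes also form an uninterrupted run with Ccl11 and Ccl1. Along the run in the order Ccl2, Ccl7, Ccl11, Ccl8 and Ccl1 the log2 ratios were 1.68 and 0.86, both bounds, then 0.51, -0.64 and -0.78, the last a bound, with Ccl12 in the middle. Neighbours of this run therefore lay on both sides of 0.

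The 2 ligands that are made as membrane proteins with a mucin-like stalk were both higher, beside 10.4% of all measured genes. Cxcl16, which is also a scavenger receptor for oxidised lipoprotein, had 431.3 and 1553.3, or 3.60-fold, and 187 and 986.6 (2.40 log2) at its other probe set. Cx3cl1, also named fractalkine, had 81.1 and 179, or 2.21-fold, from a day 0 signal just above the floor. Its second probe set had 22.8 and 109.5 (at least 0.49 log2), and the other two were below the floor. The proteases Adam10 and Adam17 release both proteins from the cell surface. Adam17 had 428.8 and 946.3, or 2.21-fold higher, and Adam10, named after its values were seen, had 1131.7 and 2237.7 (0.98 log2). Adam17 thus passed 2-fold and Adam10 did not.

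Ligands typical of epithelia and mucosa differed in both directions. Ccl28, which epithelial cells secrete and which draws IgA plasma cells through Ccr10, had 12136.5 on day 0 and 498.5 on day 1, or 24.3-fold lower. Its other probe sets had 1554.7 and 43 (a bound of -4.32 log2) and 574.5 and 102.8 (-2.48 log2). All 3 were much lower on day 1, by factors that differed. The IgA heavy chain gene Igha, named after its values were seen, had a log2 ratio of -0.34 and the joining chain gene Jchain 0.02, so these plasma cell transcripts were under 2-fold. Cxcl17, a mucosal factor grouped with the CXC ligands by name, had 335.6 and 1065.9, or 3.18-fold higher. Ccl25, a gut and thymus ligand of Ccr9, had 184.7 and 62.8, at least 2.38-fold lower, and its other probe set was below the floor. Ccl27a, a skin ligand of Ccr10, had 141.1 and 113.4 (-0.32 log2), with a positive ratio under 5 of 6 other scalings. Ccl20 was below the floor (11.6 and 5.7). Cxcl14 cannot be given a direction. Its brightest probe set had 933.8 and 726.1 (-0.36 log2) and the other 424.4 and 888 (1.07 log2). Among 7 luminal epithelial markers, 6 passed 2-fold upward (85.7%, beside 10.4% of all genes) and 0 downward (beside 13.3%). Their median log2 ratio was 2.89, with summed signals of 16188 and 73365. Krt7, a luminal keratin, was 17.8-fold higher. The part of these epithelial differences in the ligand values was not tested.

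Most CXC ligands that attract neutrophils through Cxcr2 were below the floor. Cxcl1 was the exception, with 772.1 and 1246.3 (0.69 log2) at its brightest probe set. The other 2 had 379.8 and 470.4 (0.31 log2) and 177.1 and 695.4 (1.97 log2). All 3 had a higher day 1 signal, and 1 of them passed 2-fold. Cxcl2 (60.2 and 40.8), Cxcl3, Cxcl5 and Cxcl15 were not measured. Of 7 neutrophil markers on the array, 4 were measured, with 1 higher (25%, beside 10.4% of all genes) and 0 lower. That gene was S100a8 (73.9 and 386, at least 4.97-fold), whereas its partner S100a9, named after its values were seen, had 142.7 and 154.5. The remaining measured markers had lower day 1 signals and are also named after their values were seen. The granule gene Ngp had 187 and 105.1 (-0.83 log2), and Csf3r 151 and 45.5 (a bound of -0.96 log2). The granule genes Mpo, Camp and Mmp8 were below the floor on both arrays.

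Interferon-induced ligands of Cxcr3 gave no clear value. Cxcl9 had 23 and 127.4 at 1 probe set (at least 0.71 log2) and 98 and 27.1 at the other, which points the other way as a bound of -0.33. Cxcl10 (73.3 and 29.3) and Cxcl11 were below the floor. The inducing cytokine Ifng was also below the floor (71.1 and 1.5), and is named after its values were seen.

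Of the ligands that place lymphocytes in tissue and lymphoid organs, Cxcl12 and Cxcl13 have probe sets with a single symbol, and neither was past 2-fold at its brightest one. Cxcl12, the ligand of Cxcr4 made by stroma, had 665.7 and 998 (0.58 log2) at its brightest probe set and 169.4 and 297.3 (0.81 log2) at another. Its remaining probe set had 169.9 and 51.5, a bound of -1.13 log2 in the other direction. Cxcl13, which guides B cells, had 231.6 and 276.5 (0.26 log2), and 110.8 and 310 (1.48 log2) at its dimmer probe set. Each gene thus had 1 probe set past 2-fold, in opposite directions.

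**Figure D2:**
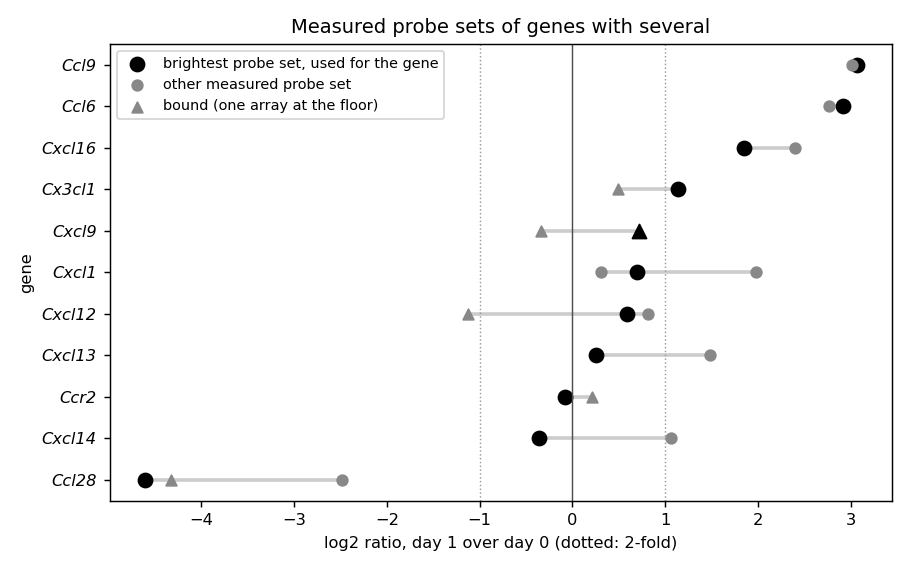
Log2 ratio of day 1 over day 0 for each measured probe set of the 11 members with several; large black symbols are the brightest probe set, grey symbols the others, triangles bounds and dotted lines 2-fold. The probe sets of Ccl9 and Ccl6 nearly coincide, those of Ccl28 all lie below -2, and those of Cxcl12, Cxcl14, Cxcl9 and Ccr2 lie on both sides of 0.

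Of 4 measured ligands linked to eosinophils and type 2 lymphocytes, 1 was at least 2-fold lower (25%, beside 13.3% of all measured genes). The ratio was below 0 for 3 of the 4, beside 56.7% of all measured genes, and that of Ccl24 turned positive under hybridisation control scaling. Ccl17, a ligand of Ccr4, had 207.5 and 10.5, at least 2.67-fold lower. Ccl1 had 133.6 and 44.3 (a bound of -0.78 log2) and Ccl24 125 and 61.3 (a bound of -0.69). Ccl11, the eosinophil attractant eotaxin, was on the other side with 186.6 and 265.1 (0.51 log2). Ccl22 was below the floor (21.1 and 41.1). The 3 genes with a ratio below 0 each had a day 1 signal below the floor. Ccl17, Ccl22 and Cx3cl1 are neighbours with no other protein-coding gene between them, with 1 lower, 1 not measured and 1 higher. The eosinophil granule markers Epx and Prg2 were below the floor on both arrays. The XC ligand Xcl1 was not measured (25.8 and 4.3). In all, 11 ligands were below the floor on both days, with signals of 1.7 to 73.9 at their brightest probe sets.

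Receptor signals lay close to the floor, and the brightest was 171.7. Ccr10, the receptor of Ccl28 and Ccl27a, had 171.7 and 11.9, at least 2.21-fold lower. Cxcr3, carried by activated T and NK cells, had 161.9 and 31.7, at least 2.08-fold lower. Both had a day 1 signal below the floor and have a single probe set each. Gzma, a granzyme of NK and cytotoxic T cells, was 3.15-fold lower in the list of NK cell markers. Of these markers 4 of 5 were measured and 1 passed 2-fold (25%, beside 13.3% of all genes at least 2-fold lower).

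**Figure D3:**
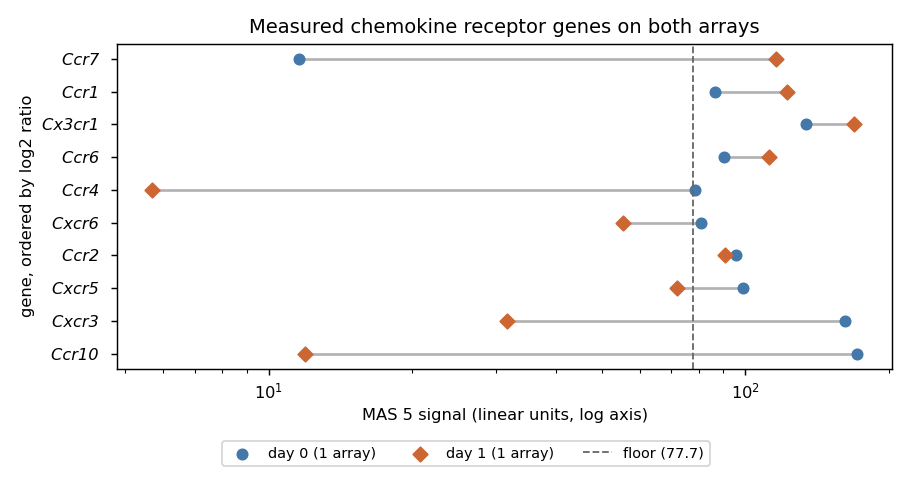
MAS 5 signals (log axis) of the 10 measured receptor genes on the day 0 array (circles) and the day 1 array (diamonds), ordered by log2 ratio, with the floor of 77.7 as a dashed line. Ccr10 and Cxcr3 lie at the bottom with day 1 signals of 11.9 and 31.7, and Ccr7 at the top with 11.6 and 116.2.

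The other 8 measured receptors did not pass 2-fold, 4 of them as bounds. Of these bounds, Ccr7 (2.38 log2) and Ccr4 (-1.82) passed it with a floor at the 25th percentile. Ccr7, which guides dendritic and T cells to lymph nodes, had 11.6 and 116.2 (at least 0.58 log2). Ccr1, the receptor of Ccl6 and Ccl9, had 86.6 and 122.3 (0.50 log2), and its other probe set was below the floor. Cx3cr1, the receptor of Cx3cl1 on monocytes and macrophages, had 134 and 169 (0.33 log2). Ccr6, the receptor of Ccl20, had 90.1 and 112.2 (0.32 log2). These 4 had a higher signal on day 1. Ccr2, the receptor of Ccl2, had 95.8 and 90.8 (-0.08 log2) at its brightest probe set, with a positive ratio under 5 of 6 other scalings, and a bound of 0.21 at another. Cxcr5, the receptor of Cxcl13, had 98.8 and 71.8 (a bound of -0.35 log2), with a positive ratio under 4 of 6 other scalings. Cxcr6, the receptor of Cxcl16, had 80.6 and 55.4, and Ccr4, the receptor of Ccl17, 78.5 and 5.7. The last 2 had day 0 signals so close to the floor that their bounds, -0.05 and -0.01 log2, say little. The receptors Ccr1l1, Ccr3, Ccr8, Ccr9, Cxcr2 and Cxcr4 were below the floor, with signals of 4.5 to 46 at their brightest probe sets.

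Of 30 ligand and receptor pairs known from the literature with both genes among the members, 12 had both genes measured. As deposited, 0 receptors were at least 2-fold higher, so no pair could have both genes higher and the pairs add no separate result. The higher ligands were in 7 pairs, of which 6 had a receptor not past 2-fold and 1 a receptor below the floor. Whether a pair had both genes higher depended on the scaling. With median centring 3 of 10 measured pairs had both genes higher, namely Ccr1 with Ccl5, Ccl6 and Ccl9, and with hybridisation control scaling 4 of 11, with Cx3cl1 and Cx3cr1 added. Ccl28 and Ccr10 were, as deposited, the 1 pair with both genes at least 2-fold lower. With median centring, loess, ribosomal protein and hybridisation control scaling 0 pairs were. For Cxcl16 and Cxcr6, Ccl2 and Ccr2, and Ccl9 and Ccr1, the ligands were higher by 1.85, at least 1.68 and 3.06 log2. Of their receptors, Cxcr6 had a bound of -0.05, which says little, and Ccr1 had 0.50. Ccr2 had -0.08 as deposited and -0.11 to 0.92 in other settings.

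Among 9 family genes outside the name rule, 6 were measured. Of these, 0 were at least 2-fold higher and 1 was lower (16.7%), beside 10.4% and 13.3% of all measured genes. The lower one was Ackr2, which takes up and degrades inflammatory CC chemokines, with 251.4 and 58, at least 3.24-fold lower. Cmklr1, a receptor of the attractant chemerin, had a log2 ratio of 0.71 and Ackr1, a chemokine carrier of venules and red cells, -0.36. The median of the 6 was 0.01. Ackr3, a second receptor of Cxcl12, had 688.6 and 758.5 (0.14 log2) and is named after its values were seen. Of cytokines that induce chemokine genes, 13 of 19 were measured, 1 higher and 1 lower (7.69% each), with a median log2 ratio of -0.28. Ltb, which forms lymphotoxin, had 6.3 and 267.4, at least 3.44-fold higher, while Tnf (313.5 and 138.9) was 2.26-fold lower and Il1b (198.2 and 105.8) had -0.91 log2.

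Of 22 measured genes that pass on the signal of chemokine receptors, 7 were higher by 2-fold or more (31.8%, beside 10.4% of all genes) and 3 lower (13.6%, beside 13.3%), with a median log2 ratio of 0.63. They include Plcb3, a phospholipase C (33.9 and 332.3, at least 4.28-fold), Rac2, a GTPase of blood cells (139.2 and 393.9, 2.83-fold), and Gnb2, a G protein beta subunit (995.8 and 2786.6, 2.80-fold). Of 12 measured genes that process or present chemokines, 2 were higher (16.7%) and 3 lower (25%), with a median of -0.16. Dpp4, which trims the start of many chemokines, had 400 and 152.1, or 2.63-fold lower, and Ext1, an enzyme of heparan sulphate synthesis, was 2.11-fold lower. Of 16 measured genes of leukocyte adhesion, 6 were higher (37.5%) and 0 lower (median 0.50). Both lists stand beside the same 10.4% and 13.3% of all genes. The hyaluronan receptor gene Cd44 had 117.8 and 841.8, or 7.15-fold higher, Icam1 was 2.59-fold and F11r, a junction protein of epithelium and endothelium, 2.55-fold higher.

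Leukocyte markers were set beside these values. For their counts, 10.4% of all measured genes were at least 2-fold higher and 13.3% lower. All 15 macrophage markers were measured, 5 of them higher by 2-fold or more (33.3%) and 1 lower (6.67%), with a median log2 ratio of 0.40. Their summed signal was 11487 on day 0 and 38926 on day 1, of which Cd14 alone, which epithelial cells can also express, made 3816.8 and 29010.6. The other genes counted were Cd68, Lyz2, Mpeg1 and Mrc1, which were higher, and C1qa, which was lower, all named after their values were seen. Of 8 T cell markers, 6 were measured, 2 higher and 2 lower, led by Cd3g (24.9 and 255.9, at least 3.29-fold), and the median log2 ratio was 0.01. The B and plasma cell list had 2 of 8 higher, led by Ms4a1 (2.26-fold), and 0 lower. Medians were -0.0030 for that list, -0.36 for the neutrophil markers and -0.43 for the NK cell markers. Of the dendritic cell markers 4 of 6 were measured, 0 higher and 1 lower, with a median of -0.73. The lower gene was Zbtb46, a transcription factor of dendritic cells (198.7 and 93.6). Mast cell markers had 6 of 7 measured, 1 higher and 0 lower, with a median of -0.24. The higher one, Kit, had 29.3 and 1517, at least 19.5-fold, and luminal epithelial progenitors also express it. Eosinophil markers had 1 of 4 measured, Il5ra, a bound of -0.06. No marker signal was listed at 0. Summed signals on day 0 and day 1 were 717.3 and 869.5 for neutrophil markers, 775.6 and 937 for T cell markers, and 623 and 211.5 for NK cell markers. They were 680.1 and 415.1 for dendritic cell markers and 46128 and 38590 for B and plasma cell markers. Single genes carried some of the sums. S100a8 alone had 73.9 and 386 in the neutrophil sum, and in the T cell list Cd3g and Cd3d were counted as higher and Cd3e and Cd8a as lower, the last 3 named after their values were seen. The part of these cells in the chemokine values was not tested.

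Fibroblast markers had 2 of 8 higher (25%, beside 10.4% of all measured genes) and 0 lower (beside 13.3%), with a median of 0.45. They were led by Thy1 (180.8 and 527.8, 2.92-fold). Endothelial markers had 0 of 7 measured genes higher and 1 lower (median -0.58), the lower one being Kdr, a receptor of the vascular growth factor (401.5 and 198.9). None of the 8 myoepithelial (median -0.07), 6 adipocyte (-0.01) and 5 skeletal muscle markers (0.38) reached 2-fold. The largest ratios in these 3 lists were -0.95 for Trp63, 0.93 for Lep and 0.96 for Mb. Of the lactation markers, Xdh, an enzyme of milk fat secretion, had the largest difference (25017.5 and 7602.2, 3.29-fold lower). Their part in the chemokine values was not tested.

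**Figure D4:**
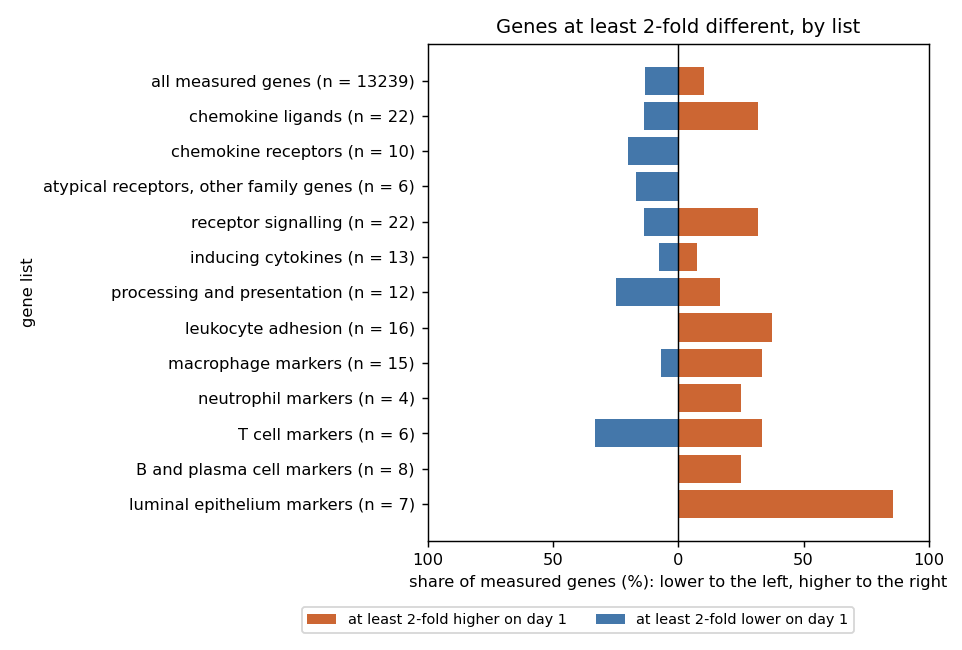
Share of measured genes at least 2-fold higher (bars to the right) or lower (bars to the left) on day 1, in percent. Shown are chemokine ligands, chemokine receptors, 5 lists of related genes and 5 chosen cell marker lists beside all measured genes. The number of measured genes is n. The other marker lists, among them secretory epithelium (0% higher, 100% lower) and fibroblast (25% and 0%), are not shown. Ligands reach 31.8% on the higher side against 10.4% of all genes, and receptors have no bar there.

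Of the 12 counted members, 5 stayed at least 2-fold different in the same direction in all 11 other settings of scaling, floor and probe set: Ccl9, Ccl6, Cxcl16, Cxcl17 and Ccl28. Their log2 ratios ranged from 2.92 to 4.30, 2.77 to 4.16, 1.71 to 3.08, 1.56 to 2.90 and -4.71 to -3.37. Ccl2 did so in all 10 settings in which it was measured. With a floor at the 75th percentile both of its signals were below the floor, so it could not be checked there. Ccl5 did not pass 2-fold with a floor at the 75th percentile (at least 0.22 log2) and Cx3cl1 as the mean of its measured probe sets (0.82). Among the lower genes, Ccl17 did not pass 2-fold with hybridisation control scaling (-0.88), and Ccl25 with that scaling and with median centring (-0.32 and -0.91). The receptors were the least firm. Ccr10 did not pass 2-fold in 4 of 10 settings and Cxcr3 in 5 of 10, with ratios up to -0.60 and -0.52.

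**Figure D5:**
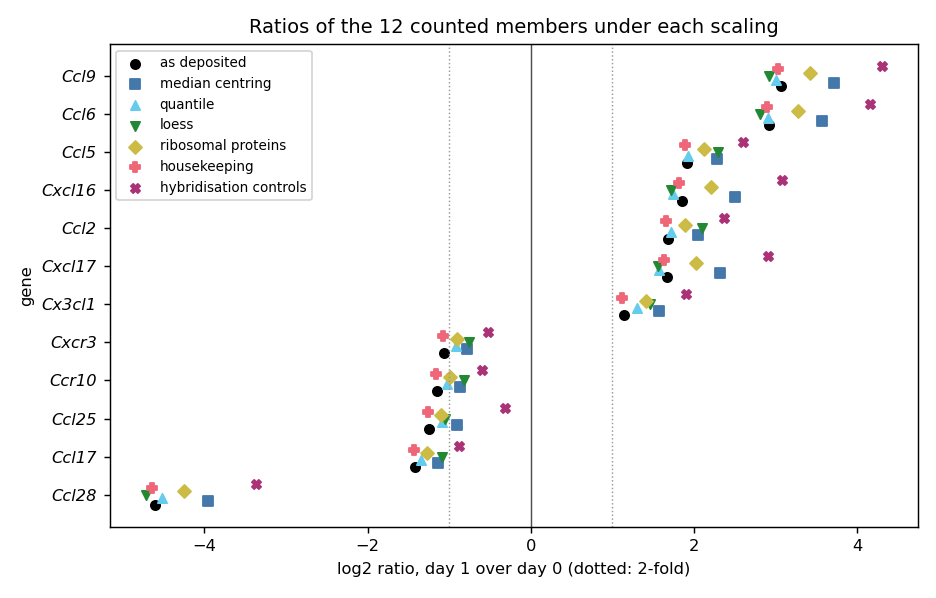
Log2 ratio of day 1 over day 0 of the 12 counted members as deposited and under 6 other scalings, each with its own symbol; dotted lines mark 2-fold. The 7 higher genes lie above 1 under each scaling shown and Ccl28 below -3, while Ccr10, Cxcr3, Ccl25 and Ccl17 cross -1 under at least 1 scaling.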

How the data were processed

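Each day has 1 array, made from the pooled RNA of 5 mice. The deposited values are MAS 5 signals, a linear intensity per probe set, which the authors made with the Microarray Suite 5.0 algorithms, per the labels. Both columns had a trimmed mean of 250.001 (2% off each end), so each array carries 1 scaling factor, and a difference in RNA content enters every ratio. The scaling target and detection calls are not given in the sources used here. Symbols came from the platform annotation and were updated through gene identifiers to RefSeq (GRCm38.p6) for 34741 of 34945 probe sets. Another 932 probe sets carry several symbols and were not used. From the signals, log2 ratios with a floor of 77.7 were computed in Python 3.11.15 with pandas 2.3.3 and checked on simulated data. Every member is accounted for. Of each related list the 3 genes with the largest ratio are named, and of the marker lists at most 1, unless stated. A gene's probe sets disagree if 1 of them has a ratio of opposite sign beyond 0.5 log2. Alternatives were 6 scalings, floors at the 25th and 75th percentile, a pseudocount of 16, the mean of probe sets, leaving out probe sets shared between transcripts, and thresholds of 1.5-fold and 3-fold. The members and lists were chosen with earlier results of these data known. The number of arrays limits the precision.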

Additional observations from a re-analysis of the deposited data

Results flagged for a closer look

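Signals of the family were also present in 4 probe sets that the platform annotation gives several symbols, so that they name no single gene and fall outside the membership rule. Of these, 2 were at least 2-fold higher on day 1, which is the rule by which they were flagged. Both were below the floor on day 0. Probe sets lower on day 1 were not flagged by this rule. The probe set whose symbols include Ccl21a and its near-identical copies had a signal of 18 on day 0 and 518.5 on day 1, at least 6.67-fold higher. The probe set whose symbols include Ccl19 had 16.6 and 275.6, at least 3.55-fold higher. Both genes encode ligands of Ccr7, which had 11.6 and 116.2. The other two, whose symbols include Ccl27a, had 205 and 95.1 (2.16-fold lower) and 117.6 and 74.1 (at least 1.51-fold lower). The cause of these differences was not tested.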

How the results depend on the processing

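No paired analysis was possible because each group is 1 array. As deposited, 7 ligands were higher and 3 lower, 0 receptors higher and 2 lower, with medians of 0.57 and -0.03 log2. The number of higher ligands was 13 of 22 with median centring and 14 of 24 with hybridisation control scaling, beside 28.5% and 52.1% of all measured genes. With a floor at the 75th percentile it was 4 of 12 (33.3%, beside 10.9%). It stayed between 6 and 10 in the other settings. The number of lower ligands was 1 with hybridisation control scaling, 8 with a floor at the 25th percentile, 1 at the 75th, 6 at 1.5-fold and 1 at 3-fold. The median of the ligands was 1.18 with median centring and 1.52 with hybridisation control scaling, and 0.40 to 0.92 otherwise. Higher receptors numbered 1 with median centring, a floor at the 25th percentile or a pseudocount of 16, and 4 with hybridisation control scaling. Lower receptors numbered 0 with median centring, loess, ribosomal protein and hybridisation control scaling and at 3-fold, beside 2.0% to 10.8% of all measured genes. With quantile normalization it was 1 of 8 (12.5%, beside 11.5%). The receptor median was above 0 with median centring (0.74), quantile normalization (0.56), loess (0.57), ribosomal protein scaling (0.48), hybridisation control scaling (0.92) and the mean of probe sets (0.025). In these scalings 8 to 9 receptors were measured, and 10 with the mean of probe sets. At the 75th percentile no receptor was measured and no value could be given. Over all genes, the share of higher among those counted was 43.8% as deposited and 41.0% to 96.3% under the scalings. Of 318 values of single members in other settings, 250 moved by less than 0.56 log2. That is the pooled SD of probe sets of the same gene. The other 68 moved more, and 0 of the counted members changed sign. Some of the 250 could not move. In 31 of the 49 members a single probe set leaves no other to use, and signals above a floor do not depend on it. The cause of these shifts was not tested.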
